A study of Homo sapiens with 8 samples.

Results

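The 52 genes described here encode the machinery that brings new proteins into the endoplasmic reticulum (ER) and carries them on to the Golgi. They were chosen with earlier results of these data known. Taken by name from 36474 genes in the count table, they are known components of 6 consecutive steps. These were signal recognition (8 genes), the translocon (11), signal peptidase (5), the COPII coat (11), the COPI coat (7) and cargo receptors (10). The transcripts were counted in LNCaP cells, an established line from a metastatic prostate carcinoma. Every library came from cells starved for several hours in medium lacking both serum and calcium, and the agent added was recombinant asporin (ASPN), a small leucine-rich protein of the extracellular matrix, used at 100 ng/mL. Cells were harvested for RNA at 0 h (2 libraries), 12 h (3 libraries) and 24 h (3 libraries). Untreated cells of the later times were not analysed here, so ASPN and time in the starvation medium cannot be told apart.

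A protein bound for secretion or for a membrane is recognised on the ribosome by the signal recognition particle, which docks at its receptor on the ER. The chain then passes through the SEC61 channel, helped by the translocon-associated SSR proteins, and signal peptidase removes the signal sequence. COPII coats bud vesicles that leave the ER, COPI coats bud vesicles that return from the Golgi, and cargo receptors sort proteins into both. Many of these genes are known targets of the unfolded protein response, in which the transcription factors XBP1 and ATF6 act on short promoter elements. Prostate luminal cells secrete heavily and rely on this pathway.

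Promoter runs are shown for 6 members to illustrate the one such element that was found among them. RefSeq promoters (GRCh38.p14, 250 bases before each start site and a short stretch after it) were matched by symbol for 46 of the 52 members. The core of the unfolded protein response element (UPRE), TGACGTGG on either strand, was present in 11 of the 46 genes, a share of 23.9%. It was present in 0.927% of all 27305 genes with a promoter in the table, and in 1.25% of the 9449 protein-coding genes with a mean of at least 100 counts here. The 11 genes were SRP19, SEC62, SSR3, SSR4, SEC16A, SEC23A, SEC24A, COPA, COPB1, COPB2 and KDELR3. In the runs below, each written 5′ to 3′ along its gene, capitals mark the core or its reverse complement.
SRP19: agtcttcatgCCACGTCAgagactagag
SSR3: ctgataacagCCACGTCAgcaaggaaac
SSR4: cagggaggggCCACGTCAgtgctgccag
SEC24A: tgagagtcggTGACGTGGcggcgaggcc
COPB1: ccacccccttCCACGTCAgccaaggact
COPB2: ctcagcggcaCCACGTCAcggcccttag
The SRP19 run (chr5:112861165-112861192, plus strand) lay across the first bases of an SRP19 exon in GENCODE, and the COPB1 run (chr11:14499842-14499869, minus strand) across the edge of a COPB1 exon. The SSR3 run (chr3:156554149-156554176, minus strand) was in an intron of another SSR3 transcript. The SSR4 run (chrX:153794529-153794556, plus strand) was within an exon of another SSR4 transcript. The SEC24A run (chr5:134648596-134648623, plus strand) fell in an exon of SAR1B, which is transcribed away from SEC24A on the other strand. The COPB2 run (chr3:139389826-139389853, minus strand) fell in an exon of the divergent transcript COPB2-DT.

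Other elements of the same response were not found in these windows. The ER stress element (ERSE) was in 0 of 46 members and 0.0916% of all genes, against 6 of 19 ER chaperone and degradation genes, HSPA5 among them. Its variant ERSE-II was in 0 of 46 members and 3 of 19 of those genes, against 0.0696% of all genes. Both strands were searched for each element. The C/EBP-ATF response element (TTGCATCA) was in 0 of 46 members and 1.08% of all genes. A match describes letters in a window and is not evidence of binding.

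Libraries held 73406825 to 96962135 counts, and all 52 members passed the filter on low counts. All 9 luminal prostate markers were present, with a summed level of 4725 to 4844 CPM (reads of a gene scaled by library size, the usual measure of level) at 0 h, 5285 to 5327 CPM at 12 h and 5277 to 5469 CPM at 24 h. Fibroblast markers summed to 21.2 to 23.8 CPM over all libraries, endothelial markers to 11.2 to 17.3 CPM, and immune and basal markers each to at most 0.138 CPM. Most of the fibroblast sum was COL1A1, at 18.9 to 21.3 CPM, and nearly all of the endothelial sum was VWF, at 11.2 to 17.3 CPM. COL1A2 and KRT5 had no row in the file, and CD3E and PECAM1 did not exceed 2 counts in any library. CPM values are scaled with TMM factors and are shares of a library, so a fall in these transcripts and a rise in all others cannot be told apart. The libraries are labelled as biological replicates, and p-values measure the spread among them. The authors plated cells in triplicate in multi-well plates, so the libraries may be wells of the same experiment. The p-values would then measure the spread between wells. All tests across genes are the quasi-likelihood F test of edgeR with Benjamini-Hochberg adjustment over 21071 genes, and a call means an adjusted p of at most 0.05.

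Transcripts of the ER entry and transport machinery became less abundant as a group, step by step over the time course. Together the 52 members made up 1.40% and 1.33% of the counts in the 0 h libraries. They made up 1.15% to 1.19% at 12 h and 1.07% to 1.11% at 24 h, with no overlap between time points. Between 12 h and 0 h, 35 of the 52 members were lower at the 0.05 level and 0 were higher, whereas 6.75% of all tested genes were lower and 4.85% higher. Between 24 h and 0 h, 39 were lower and 0 higher, against backgrounds of 8.49% and 7.82%. Between 24 h and 12 h, 16 were lower and 0 higher, against 1.61% and 1.12%. In either direction the backgrounds were 11.6%, 16.3% and 2.72%. These backgrounds include scarce genes, whereas most members were abundant, so small changes were easier to call in members. A share for genes of matched level is not given here. Both comparisons with 0 h use the same 2 libraries, and the members were chosen with earlier results of these data known.

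The typical size of the change was modest. The median log2 difference of the members was -0.22 at 12 h and -0.30 at 24 h relative to 0 h, the latter a fall of 18.5%, and -0.11 between 24 h and 12 h. Over all tested genes these medians were -0.00069, -0.0031 and 0.0035. At 24 h, 51 of 52 members had a log2 difference below 0, and the exception, SRP14, was at 0.020 (adjusted p = 0.831, edgeR). The 0 h and 24 h libraries did not overlap, with 24 h lower, for 46 members, a pattern that 21.7% of all tested genes showed. The corresponding counts were 44 between 12 h and 0 h (background 19.6%) and 23 between 24 h and 12 h (9.33%). With the requirement of a change of at least 1.5-fold, 2 members were called at 24 h relative to 0 h (background 1.35% lower), SEC24D and MCFD2. In the other comparisons 0 members reached that size (backgrounds 0.565% lower at 12 h relative to 0 h and 0.104% lower between 24 h and 12 h). In either direction, the backgrounds for this size were 1.05%, 2.45% and 0.18% in the 3 comparisons.

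**Figure D1:**
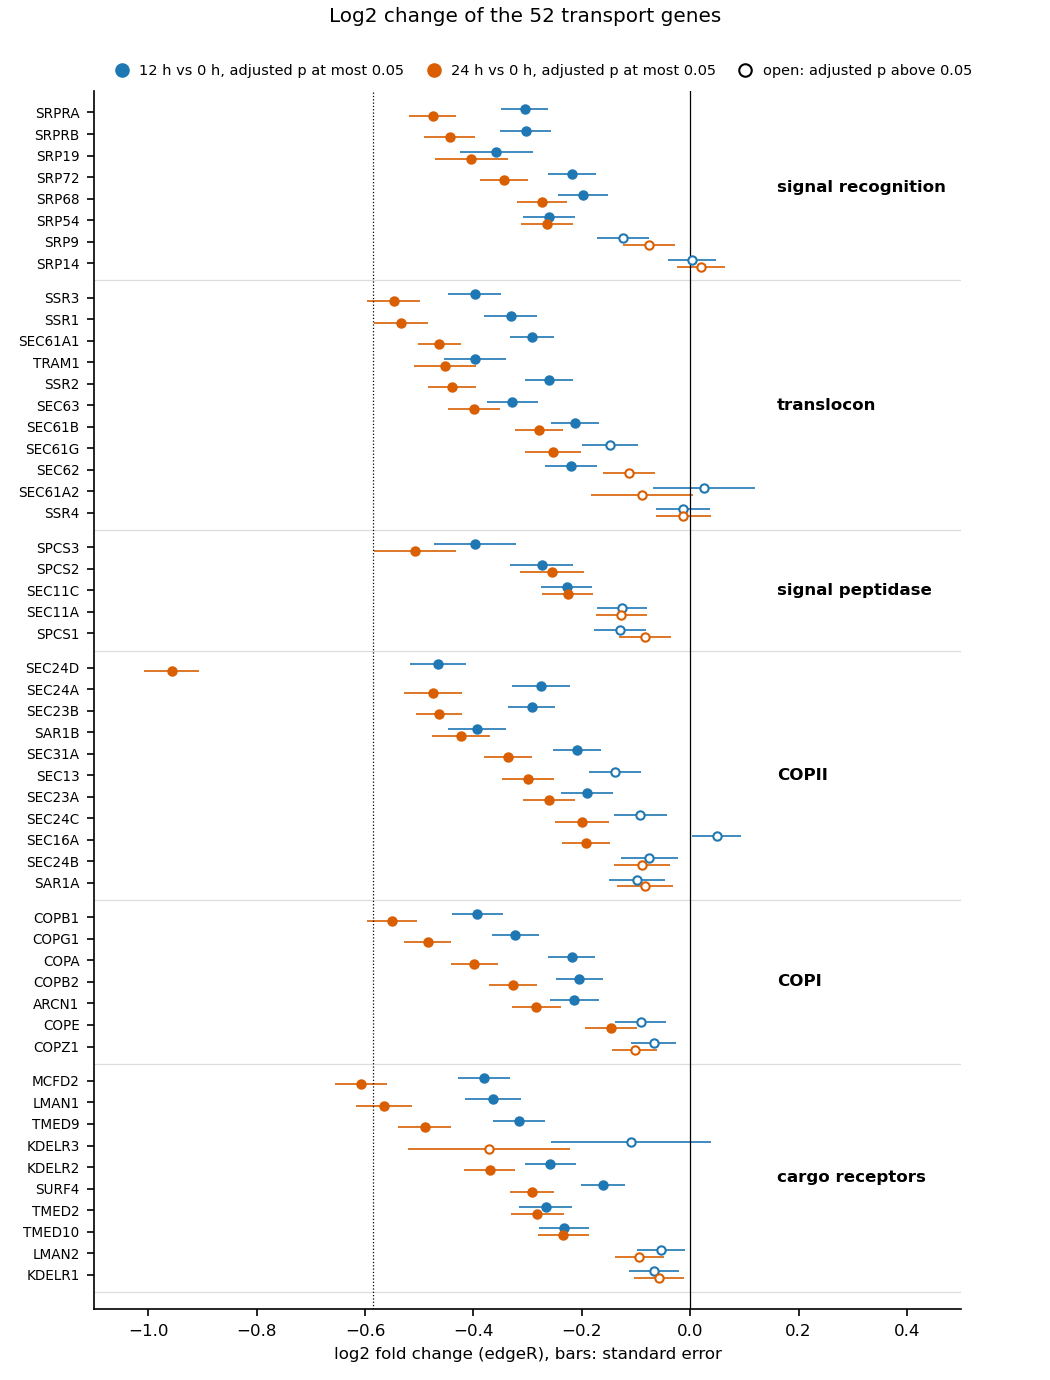
Log2 difference from 0 h (x axis) of each of the 52 members (y axis, grouped by step) at 12 h and at 24 h, with bars of 1 standard error and filled symbols for an adjusted p of at most 0.05; the dotted line marks a 1.5-fold fall. Nearly all points lie left of 0 (51 of 52 at 24 h), SEC24D lies farthest left at -0.96, and SRP14 and SSR4 lie near 0.

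These counts rested unequally on single libraries. Without 0 h replicate 1, 21 members instead of 35 were called between 12 h and 0 h, while 37 instead of 39 were called between 24 h and 0 h. Between 24 h and 12 h the count fell to 5 without 12 h replicate 3, to 3 without 24 h replicate 1, and to 8 without 24 h replicate 2 or without 24 h replicate 3. Over all the alternatives tried, 37 of the 39 calls at 24 h relative to 0 h were kept in each, the exceptions being SPCS2 and COPE. Of the 35 calls at 12 h relative to 0 h, 21 were kept in each. Of the 16 calls between 24 h and 12 h, those of SEC24D and SEC16A were kept in each, and the other 14 were lost in at least 1.

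Signal recognition genes were lower in 6 of 8 cases at both 12 h and 24 h relative to 0 h, with a median log2 difference of -0.31 at 24 h. Without 0 h replicate 1, 3 instead of 6 were called at 12 h, SRP19, SRP68 and SRP72 being lost (adjusted p of 0.114, 0.0744 and 0.0808, edgeR). SRPRA, the receptor subunit that meets the particle at the ER membrane, gave 313 and 313 CPM at 0 h. It gave 257, 247 and 257 CPM at 12 h and 217, 234 and 225 CPM at 24 h. The groups of SRPRA did not overlap, and each later group lay below the one before. Its log2 difference was -0.31 ± 0.044 (SE) at 12 h and -0.48 ± 0.044 at 24 h (adjusted p = 1.18e-09, edgeR), and -0.17 between 24 h and 12 h (adjusted p = 0.0124). The SRPRA call between 24 h and 12 h was lost without 12 h replicate 3 (adjusted p = 0.0874), without 24 h replicate 1 (0.145) and without 24 h replicate 3 (0.0810).

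SRPRB, the membrane-anchored receptor subunit, was at 157 and 154 CPM at 0 h, at 121, 129 and 129 CPM at 12 h, and at 111, 118 and 115 CPM at 24 h. The 3 groups were again separate, and the log2 difference at 24 h was -0.44 ± 0.046 (adjusted p = 1.66e-08, edgeR). SRP72, a scaffold protein of the particle, fell from 374 and 348 CPM at 0 h to 299, 319 and 314 CPM at 12 h and 276, 288 and 289 CPM at 24 h. All SRP72 libraries at 24 h lay below all at 12 h, and the log2 difference from 0 h was -0.34 ± 0.045 (adjusted p = 8.83e-07, edgeR). SRP19, SRP68 and SRP54, the last being the subunit that binds the signal sequence, also fell by 24.4%, 17.3% and 16.8% at 24 h.

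The pair that forms the Alu domain of the particle, which slows translation, did not pass the test. SRP14 was at 249.99 and 244 CPM at 0 h and at 244, 251 and 256 CPM at 24 h, and the groups overlapped. SRP9 was at 314 and 281 CPM at 0 h and at 272, 285 and 289.95 CPM at 24 h, with a log2 difference of -0.076 ± 0.049 (adjusted p = 0.342, edgeR). Neither was called in any of the 3 comparisons, although SRP9 was called lower at 12 h without 12 h replicate 2 (adjusted p = 0.0313, edgeR). Without the 0 h library that has no number, the SRP9 log2 difference at 12 h was -0.19. In a fit with the replicate number as a block it was -0.26 at 12 h and -0.21 at 24 h. The 0 h library without a number was a block of its own there, so 0 h rested on replicate 1 alone. SRP14 has a processed pseudogene copy, SRP14P2, whose counts were 0.0268% of its own.

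Translocon genes were lower in 8 of 11 cases at 12 h and at 24 h relative to 0 h, and their median log2 difference at 24 h was -0.40, the lowest of the 6 steps. SEC61A1, the channel-forming subunit, was at 1064 and 1052 CPM at 0 h. It was at 858, 862 and 873 CPM at 12 h and at 748, 790.3 and 766 CPM at 24 h. The ranges were tight and separate at each time. Its log2 difference was -0.29 ± 0.040 at 12 h and -0.46 ± 0.040 at 24 h (adjusted p = 4.02e-10, edgeR), and -0.17 between 24 h and 12 h (adjusted p = 0.00579). The last of these SEC61A1 calls was lost without 12 h replicate 3 (adjusted p = 0.0522), without 24 h replicate 1 (0.0838) and without 24 h replicate 3 (0.0544). The small channel subunits SEC61B and SEC61G fell by 17.6% and 16.1% at 24 h. SEC61A2, a second form of the channel subunit, was at 12.0 and 9.56 CPM at 0 h and at 10.4, 9.92 and 10.2 CPM at 24 h, and its groups overlapped in all comparisons.

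The translocon-associated protein complex split by subunit. SSR3, its gamma subunit, went from 547 and 488 CPM at 0 h to 374, 409 and 397 CPM at 12 h and 336, 366 and 361 CPM at 24 h. SSR3 differed by -0.40 ± 0.049 on the log2 scale at 12 h and by -0.55 ± 0.049 at 24 h (adjusted p = 8.82e-10, edgeR), and the 24 h libraries lay below all others. SSR1, the alpha subunit, went from 538 and 488 CPM at 0 h to 386, 425 and 412 CPM at 12 h and 333, 364 and 367 CPM at 24 h. SSR1 was 30.9% lower at 24 h than at 0 h (log2 difference -0.53 ± 0.049, adjusted p = 1.35e-09, edgeR), with no overlap between any of its groups. SSR2, the beta subunit, fell by 26.2%.

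SSR4, the delta subunit, did not pass the test in any comparison. Its levels were 263 and 266 CPM at 0 h, 286, 246 and 255 CPM at 12 h, and 263, 271 and 253 CPM at 24 h. The groups overlapped throughout, with a log2 difference at 24 h of -0.013 ± 0.051 (adjusted p = 0.916, edgeR). With offsets corrected for GC content and transcript length, however, SSR4 was called lower at 12 h, at a log2 difference of -0.10 (adjusted p = 0.0296). TRAM1 and SEC63, which help nascent chains into the channel, fell by 26.9% and 24.2% at 24 h. SEC62, the partner of SEC63, was 14.1% lower at 12 h (adjusted p = 0.00212) but not past the test at 24 h, where its libraries (167, 172 and 172 CPM) lay above those at 12 h (151, 166 and 158 CPM). The SEC62 call at 12 h was lost without 0 h replicate 1 (adjusted p = 0.143) and under the correction for GC content and length (log2 difference -0.077, adjusted p = 0.0903). At 24 h relative to 0 h, SEC62 was called lower without 12 h replicate 1 (adjusted p = 0.0491, edgeR). The SEC62 log2 difference at 24 h was -0.11 with all libraries and -0.17 without the 0 h library that has no number. It was -0.22 in a fit with the replicate number as a block, where 0 h again rested on replicate 1 alone.

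**Figure D2:**
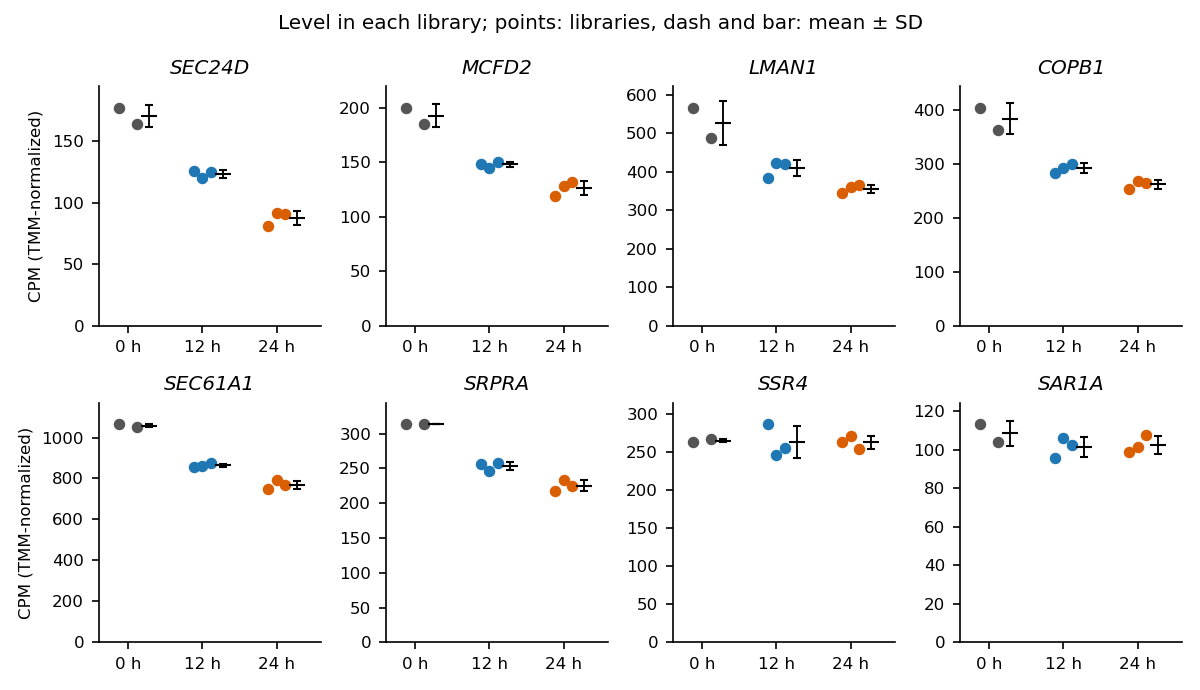
Level in CPM (y axis, from 0) of 8 members at 0, 12 and 24 h (x axis); each point is a library, and the dash with its bar is the group mean ± SD. SEC24D, MCFD2, LMAN1, COPB1, SEC61A1 and SRPRA step down at each time without overlap, while the libraries of SSR4 and SAR1A overlap across times.

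Signal peptidase genes were lower in 3 of 5 cases at 12 h and at 24 h relative to 0 h, with 0 calls between 24 h and 12 h. All 3 calls at 12 h were lost without 0 h replicate 1, at adjusted p of 0.178 for SPCS2, 0.0776 for SPCS3 and 0.0854 for SEC11C (edgeR). SPCS3, an accessory subunit of the complex, was at 213 and 183 CPM at 0 h, at 135, 164 and 153 CPM at 12 h, and at 131, 145 and 143 CPM at 24 h. Both later groups of SPCS3 lay below the 0 h libraries, and they overlapped each other. The log2 difference was -0.51 ± 0.076 at 24 h (adjusted p = 0.000199, edgeR). SEC11C, a catalytic subunit, was at 153 and 142 CPM at 0 h, 129.8, 125 and 123 CPM at 12 h, and 124, 130.3 and 123 CPM at 24 h. The change in SEC11C was of similar size at both times (log2 difference -0.23 ± 0.047 each, adjusted p = 0.00126 and 0.00077).

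SPCS2 was at 169 and 151 CPM at 0 h and at 126, 137 and 139.5 CPM at 24 h (log2 difference -0.26 ± 0.058, adjusted p = 0.00223, edgeR). The SPCS2 call at 24 h was also lost without 0 h replicate 1 (adjusted p = 0.149). SEC11A, the other catalytic subunit, differed by -0.13 ± 0.047 at 24 h (adjusted p = 0.0600). SEC11A was called lower at 24 h under 6 alternatives, among them DESeq2, protein-coding genes alone and a mean of at least 100 counts, at adjusted p of 0.0292 to 0.0412. SPCS1 differed by -0.084 ± 0.048 (adjusted p = 0.269), and 71.4% of its transcript is shared with NEK4, so its counts may include reads of that gene.

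COPII genes were lower in 6 of 11 cases at 12 h, in 9 at 24 h relative to 0 h, and in 5 at 24 h relative to 12 h. The last count was 2 without 24 h replicate 1 and 3 without 24 h replicate 2, 24 h replicate 3 or 12 h replicate 3. SEC24D (chr4:118722823-118838683, minus strand, GRCh38), a cargo-binding coat subunit, showed the largest change of the 52 genes. It was at 177 and 164 CPM at 0 h, at 126, 119.8 and 125 CPM at 12 h, and at 81.3, 91.5 and 91.0 CPM at 24 h. The 3 groups were far apart compared with the spread within them. SEC24D had a log2 difference of -0.47 ± 0.051 at 12 h (adjusted p = 2.19e-07, edgeR), -0.96 ± 0.051 at 24 h (adjusted p = 4.49e-14), and -0.49 ± 0.047 between 24 h and 12 h (adjusted p = 5.15e-08). Its level at 24 h was 48.5% below that at 0 h, and the calls held in every alternative tried.

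SEC23B, an inner coat subunit, was at 302 and 296 CPM at 0 h, at 248, 242 and 242 CPM at 12 h, and at 211, 221 and 218 CPM at 24 h. Its groups did not overlap, and it was 27.5% lower at 24 h (log2 difference -0.46 ± 0.042, adjusted p = 1.14e-09, edgeR). SEC24A was at 82.8 and 78.4 CPM at 0 h, at 63.8, 70.7 and 65.4 CPM at 12 h, and at 57.7, 55.7 and 60.8 CPM at 24 h. SEC24A was lower at 24 h by -0.47 ± 0.054 on the log2 scale (adjusted p = 7.6e-08, edgeR), again with separate groups.

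Other COPII members changed less. SEC31A and SEC13, which build the outer cage, fell by 20.8% and 18.7% at 24 h, and the inner coat subunits SEC23A and SEC24C fell by 16.5% and 12.9%. SEC24A and SAR1B overlap on opposite strands, so reads in the overlap could have been counted for either. SEC16A, which organises ER exit sites, was at 246 and 255 CPM at 0 h, at 253, 252 and 272 CPM at 12 h, and at 219, 221 and 217 CPM at 24 h. Its 0 h and 12 h libraries overlapped, and its fall lay between 12 h and 24 h (log2 difference -0.24 ± 0.040, adjusted p = 0.00045, edgeR). SEC24B and SAR1A did not pass the test in any comparison. In a fit with the replicate number as a block, the SAR1A log2 difference from 0 h was larger, at -0.23 at 12 h and -0.21 at 24 h. There 0 h rested on replicate 1 alone.

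COPI genes were lower in 5 of 7 cases at 12 h, in 6 at 24 h relative to 0 h, and in 3 at 24 h relative to 12 h. At 12 h, 3 were called without 0 h replicate 1, and at 24 h relative to 12 h, 0 without 12 h replicate 3 and 1 without each 24 h library in turn. COPB1, the beta coat subunit whose promoter run is shown above, was at 404 and 364 CPM at 0 h. It was at 283, 293 and 301 CPM at 12 h and at 253, 268 and 265 CPM at 24 h. All COPB1 groups were separate, with a log2 difference at 24 h of -0.55 ± 0.047 (adjusted p = 2.55e-10, edgeR), a fall of 31.7%. COPG1, the gamma subunit, was at 431 and 431 CPM at 0 h, at 342, 334 and 358 CPM at 12 h, and at 300.3, 315 and 309 CPM at 24 h. COPG1 was 28.5% lower at 24 h (log2 difference -0.48 ± 0.043, adjusted p = 6.14e-10).

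COPA, the alpha subunit, was at 321 and 317 CPM at 0 h, at 274, 265 and 283 CPM at 12 h, and at 243, 238 and 245 CPM at 24 h. Its 3 groups were separate, and it was 24.1% lower at 24 h (log2 difference -0.40 ± 0.043, adjusted p = 3.14e-08, edgeR). COPB2 and ARCN1, the beta-prime and delta subunits, fell by 20.3% and 17.9%. COPB2 shares 34.1% of its exon bases with MRPS22 on the other strand, and MRPS22 counts were 26.5% of its own. The small subunits moved least. COPE fell by 9.63% (adjusted p = 0.0303), a call that was lost without either of the 0 h libraries or without 24 h replicate 1 or 3 (adjusted p of 0.0701 to 0.170), and COPZ1 differed by -0.10 ± 0.042 on the log2 scale (adjusted p = 0.0988). COPZ1 was called lower with DESeq2 (adjusted p = 0.0343), without 12 h replicate 1 (0.0493) and under the correction for GC content and length (0.0448).

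Cargo receptors were lower in 7 of 10 cases at 12 h and at 24 h relative to 0 h, and in 4 at 24 h relative to 12 h. Without 0 h replicate 1 the count at 12 h was 4, SURF4, TMED2 and TMED10 being lost (adjusted p of 0.101, 0.0609 and 0.0776, edgeR). The count at 24 h relative to 12 h was 0 without 24 h replicate 1, 1 without 24 h replicate 2 or 12 h replicate 3, and 2 without 24 h replicate 3. MCFD2 and LMAN1 encode the 2 subunits of a receptor complex known for carrying coagulation factors out of the ER. MCFD2 (chr2:46901870-46941855, minus strand, GRCh38) was at 200.02 and 185 CPM at 0 h, at 149, 145 and 150.03 CPM at 12 h, and at 119.5, 128 and 132 CPM at 24 h. Its groups did not overlap, and the log2 difference was -0.38 ± 0.048 at 12 h and -0.61 ± 0.048 at 24 h (adjusted p = 7.05e-11, edgeR). LMAN1 was at 566 and 487 CPM at 0 h, at 385, 422 and 420.5 CPM at 12 h, and at 344, 359 and 365 CPM at 24 h. LMAN1 was 32.4% lower at 24 h (log2 difference -0.56 ± 0.052, adjusted p = 1.76e-09), and its 0 h libraries were the most spread of the 3 groups.

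TMED9, a member of the p24 family that shuttles between ER and Golgi, was at 252 and 251 CPM at 0 h. It was at 216, 188 and 203 CPM at 12 h and at 177, 185 and 176 CPM at 24 h. TMED9 was 28.8% lower at 24 h (log2 difference -0.49 ± 0.049, adjusted p = 6.12e-09, edgeR), with no overlap between groups. Its relatives TMED2 and TMED10 fell by 17.8% and 15.0% at 24 h, and SURF4, a receptor for many soluble cargoes, fell by 18.3%. LMAN2 was 6.28% below 0 h at 24 h and did not pass the test (adjusted p = 0.165), but was called lower once offsets were corrected for GC content and length (adjusted p = 0.00018). MCFD2 stood at the 1.5-fold limit, which it missed without 0 h replicate 1 (log2 difference -0.56), without 24 h replicate 1 (-0.57) and under the correction for GC content and length (-0.58). Without the 0 h library that has no number, 7 members instead of 2 were past 1.5-fold.

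Related members did not all change equally, and ratios of pairs were compared over the 8 libraries. The pairs were forms within a gene family, or the receptor subunits SRPRA and SRPRB. An exact permutation test of the time labels was run for 14 pairs (560 assignments, smallest possible p = 0.00357), with Benjamini-Hochberg adjustment over the 14. It asked whether the time points differed at all and did not test the direction of a change. The pairs were chosen with results of these data in view. Of the 14 pairs, 8 had an adjusted p of at most 0.0313, and 5 of those 8 were within the SEC24 family. Pairs within that family reuse the same genes, so these 5 are not separate results, although the adjustment counted them so. Each ratio is of CPM per base of transcript, not of CPM itself. The SEC24B to SEC24D ratio rose from 0.232 at 0 h to 0.303 at 12 h and 0.423 at 24 h (exact permutation p = 0.00357, adjusted p = 0.0125). The SEC24C to SEC24D ratio went from 0.679 to 0.878 and 1.15 (exact permutation p = 0.00357, adjusted p = 0.0125).

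Per base of transcript, SEC24D made up 44.5% and 46.1% of the summed SEC24 level at 0 h. Its share was 38.3% to 41.3% at 12 h and 31.5% to 34.99% at 24 h. SEC24C took 29.9% and 31.6% of the level at 0 h and 37.7% to 39.9% at 24 h, so the order of SEC24C and SEC24D was the opposite at 24 h. SEC24A took 13.4% and 13.6% at 0 h and 13.4% to 14.3% at 24 h. SEC24C and its overlapping TEC gene share 43.4% of the transcript, and that gene had 1.81% as many counts.

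SAR1A and SAR1B encode the GTPases that start COPII assembly. SAR1B was at 164 and 143 CPM at 0 h, at 109, 122 and 119.8 CPM at 12 h, and at 113, 113 and 118 CPM at 24 h. It fell by 25.4% at 24 h (log2 difference -0.42 ± 0.053, adjusted p = 4.88e-07, edgeR). SAR1A was at 113 and 104 CPM at 0 h and at 98.8, 101 and 108 CPM at 24 h, and these overlapped. The SAR1A to SAR1B ratio per base of transcript rose from 0.782 at 0 h to 0.958 at 12 h and 0.988 at 24 h (exact permutation p = 0.00357, adjusted p = 0.0125).

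KDEL receptors return escaped ER proteins on COPI vesicles. KDELR2 was at 304 and 290.4 CPM at 0 h, at 235, 260.04 and 250.5 CPM at 12 h, and at 221, 232 and 237 CPM at 24 h, a fall of 22.6% at 24 h (adjusted p = 6e-07, edgeR). KDELR1 was at 142 and 141 CPM at 0 h and at 134, 137 and 136 CPM at 24 h, a log2 difference of -0.057 ± 0.046 (adjusted p = 0.466). The KDELR1 to KDELR2 ratio per base of transcript rose from 0.855 to 0.976 and 1.06 (exact permutation p = 0.00357, adjusted p = 0.0125). KDELR3 was scarce, at 4.03 and 3.18 CPM at 0 h and at 2.73, 2.63 and 3.05 CPM at 24 h. It did not pass the test at 24 h (log2 difference -0.37 ± 0.15, adjusted p = 0.0910, edgeR). The KDELR3 difference was -0.52 without the 0 h library that has no number and -0.56 with the replicate number as a block. In both fits 0 h rested on replicate 1 alone.

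The SEC61A1 to SEC61A2 ratio per base of transcript fell from 69.1 to 55.0 and 52.8 (exact permutation p = 0.0179, adjusted p = 0.0313). For SEC23A and SEC23B the ratio was 0.412, 0.442 and 0.475 at the 3 times and did not pass after adjustment (exact permutation p = 0.0536, adjusted p = 0.0833). The receptor subunits SRPRA and SRPRB had ratios of 1.74, 1.73 and 1.70 (exact permutation p = 0.757). The catalytic signal peptidase subunits SEC11A and SEC11C had ratios of 0.604, 0.648 and 0.647 (exact permutation p = 0.182, adjusted p = 0.232).

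**Figure D3:**
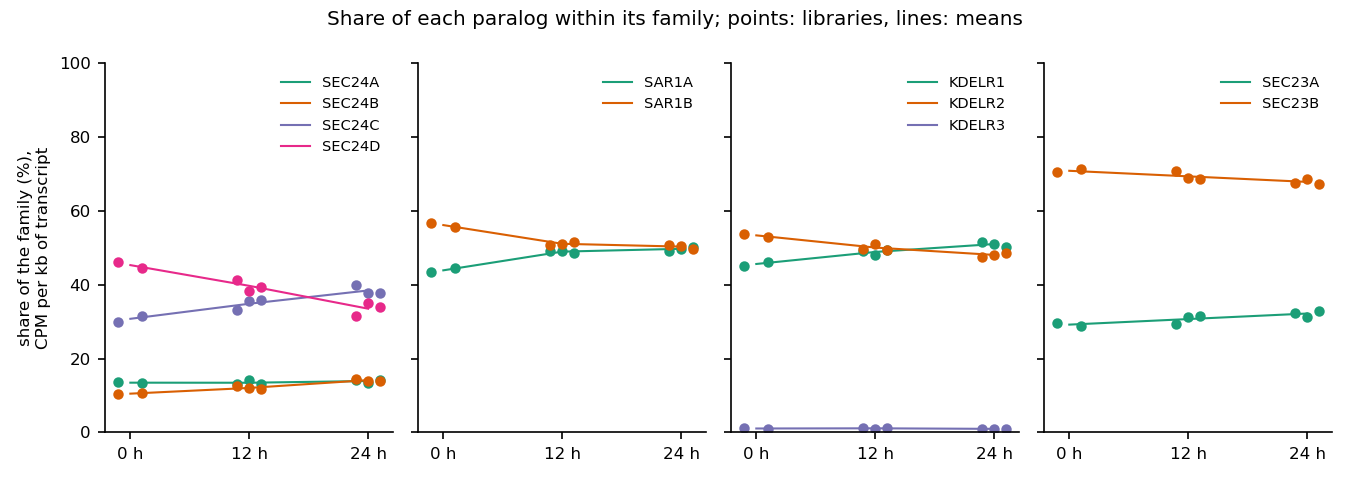
Share of each family's summed level per base of transcript (y axis, percent) taken by each member at 0, 12 and 24 h (x axis); points are libraries and lines join group means. SEC24D goes from 44.5% and 46.1% at 0 h to 34.99% or less at 24 h and SEC24C from 31.6% or less to 37.7% or more, while KDELR2 goes from 52.9% or more to 48.7% or less.

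Levels per length show which members are abundant. At 0 h SSR4 had the highest mean level, at 435 CPM per kb of its main transcript, followed by SSR2 at 326, SEC61B at 314, SEC61A1 at 297 and SEC61G at 282 CPM per kb. All of these belong to the translocon. The scarcest were KDELR3 at 2.13, SEC61A2 at 4.32, SEC24B at 9.83 and SRP19 at 11.4 CPM per kb. At 24 h SSR4 was at 432 CPM per kb, against 259 for SEC61B, 240 for SSR2, 237 for SEC61G and 215 for SEC61A1. SSR4 thus stood farther from the other translocon members in level at 24 h than at 0 h.

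**Figure D4:**
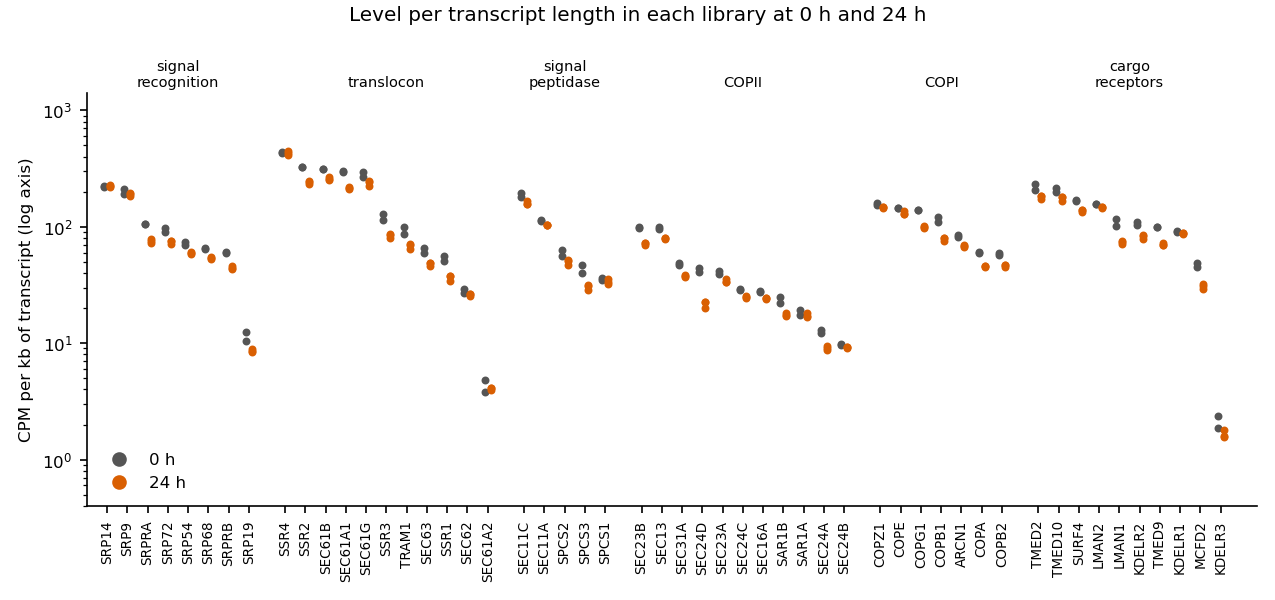
Level per length (CPM per kb, log axis) of each member at 0 h and at 24 h, arranged by step; each point is a library. SSR4 lies highest and KDELR3 and SEC61A2 lowest at both times, and for most genes the 24 h points lie below the 0 h points.

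Members were also grouped by length. The 10 members with a main transcript of at most 1500 bases had a median log2 difference of -0.19 at 24 h, and 6 of them were lower at the 0.05 level. The 15 members of intermediate length had a median of -0.28, and 10 of them were lower. The 27 members longer than 3000 bases had a median of -0.40, and 23 of them were lower. Over all tested genes, 8.49% were lower at 24 h. That share was not computed for each length class, so the counts cannot be compared between classes. Differences between these classes were not tested. Among abundant genes of the same length classes in the whole table, the medians were 0.019 (1434 genes), 0.020 (3449 genes) and -0.012 (6620 genes). With offsets corrected for GC content and transcript length, 41 members were lower at 24 h relative to 0 h, and their median was -0.28.

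Members with the UPRE core in their promoter were lower at 24 h in 8 of 11 cases, with a median log2 difference of -0.37. Of the 35 members with a promoter in the table and no match, 26 were lower, with a median of -0.28. Over all tested genes 8.49% were lower, and the difference between these sets was not tested. The core was thus present both in COPB1 and SSR3, which fell, and in SSR4, which did not pass the test. XBP1 itself was at 488 and 457 CPM at 0 h, at 419.9, 402 and 420.1 CPM at 12 h, and at 352, 385 and 386 CPM at 24 h. XBP1 fell by 20.8% at 24 h (log2 difference -0.34 ± 0.046, adjusted p = 2.03e-06, edgeR), and its groups did not overlap. ATF6 fell by 19.7% (adjusted p = 1.84e-05) and CREB3L2, a relative of ATF6 known to act on secretory genes, by 20.9% (adjusted p = 1.82e-06). CREB3L4 was higher at 12 h (log2 difference 0.16 ± 0.055, adjusted p = 0.0461) and not past the test at 24 h. The CREB3L4 call at 12 h was lost in 6 alternatives, at adjusted p of 0.0611 to 0.415, the highest being without 0 h replicate 1. CREB3L1 was near absent, at 0.0344 to 0.182 CPM.

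Neighbouring lists of the secretory pathway give a scale for these changes. Over all tested genes, 8.49% were lower and 7.82% higher at 24 h relative to 0 h. At 24 h relative to 0 h, all 21 ER chaperone and degradation genes tested were lower, with a median log2 difference of -0.55. HSPA5, the main ER chaperone, differed by -0.77 and HERPUD1, which acts in ER-associated degradation, by -0.81. Of 12 oligosaccharyltransferase genes, which add sugars to chains in the translocon, 8 were lower (median -0.19), the smallest p being those of OSTC at -0.46 and MAGT1 at -0.38. Of 17 SNAREs and tethers between ER and Golgi, 10 were lower (median -0.20), USO1 at -0.43 and SEC22B at -0.40 having the smallest p. Of 15 other coat genes, 7 were lower (median -0.11). MIA2 at -0.70, which helps load large cargo into COPII carriers, and the COPI regulator ARFGAP3 at -0.47 had the smallest p there.

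Other cargo receptors were lower in 5 of 17 cases and higher in 1, with a median of -0.061. TMED5 at -0.57 and CNIH1 at -0.30 had the smallest p of that list. Alternative routes of insertion into the ER membrane, the EMC and GET genes and their relatives, showed 1 lower (EMC2 at -0.23) and 1 higher (EMC10 at 0.14) of 20, with a median of -0.038. Against 8.49% lower and 7.82% higher over all tested genes, these counts did not exceed the background. The EMC2 call was lost without 0 h replicate 1 (adjusted p = 0.117) and without 24 h replicate 1 (0.0502). The EMC10 call was lost without either of the 0 h libraries and without each 24 h library in turn (adjusted p of 0.0517 to 0.190). Coats and sorting complexes that act after the Golgi showed 5 lower and 1 higher of 27, with a median of -0.033, and AP2B1 and AP3S1 were each at -0.27. All of these values are log2 differences between 24 h and 0 h from the same edgeR fit, and differences between lists were not tested.

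**Figure D5:**
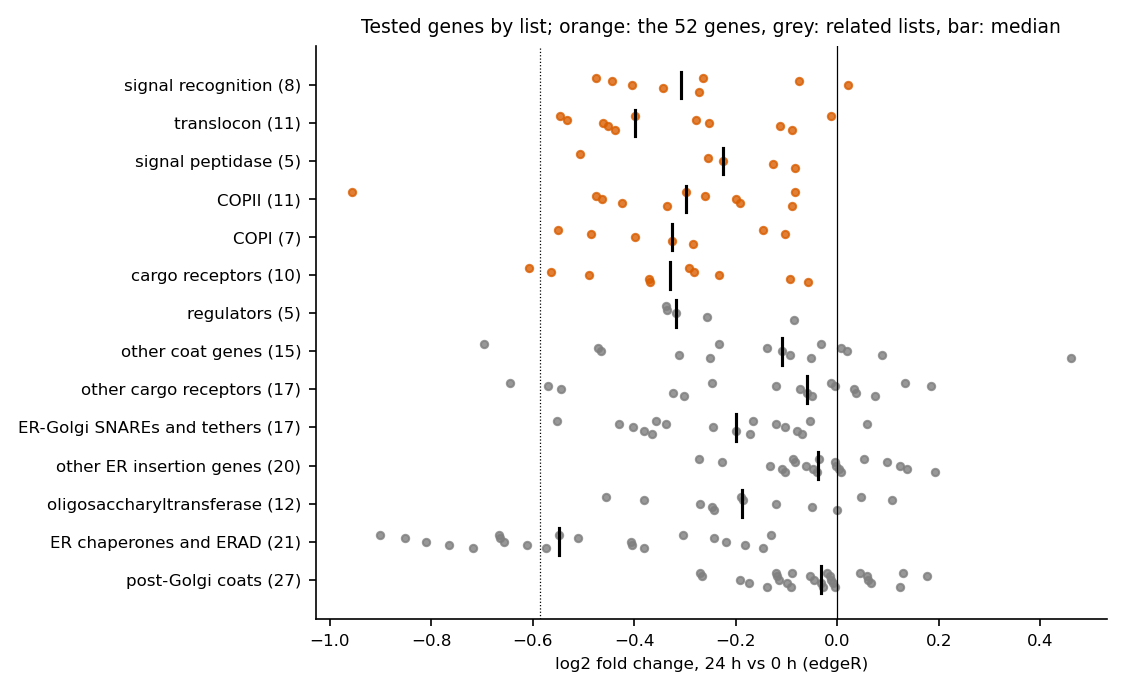
Log2 difference between 24 h and 0 h (x axis) of every tested gene in the 6 steps and in 8 neighbouring lists (y axis); points are genes and the dash is the list's median. The medians of the 6 steps lie between -0.40 and -0.23, ER chaperones lie lower at -0.55, and the EMC/GET and post-Golgi lists lie near 0.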

How the data were processed

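RNA sequencing of LNCaP cells was measured in 8 libraries (2 at 0 h, 3 at 12 h, 3 at 24 h). The authors trimmed reads with Cutadapt, aligned them to GRCh38 with STAR and counted them with featureCounts; the deposited values are these raw counts per gene, without normalization. A 0 h library was left out by the authors for quality. Strand, read-pair and multi-mapping settings of the counting were not given in the sources used here, so overlapping genes and near-identical copies may share reads. Columns were assigned by time and replicate number. A 0 h column whose number no 0 h label has was used as a library without a number. File coordinates equalled GENCODE 44 on GRCh38 for 30996 of 30996 shared identifiers.

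Counts of 36474 genes were tested with edgeR 4.0.16 in R 4.3.3 (TMM, filterByExpr, robust glmQLFit, 1 coefficient per time point over 8 libraries), which kept 21071 genes. A count of 3 was the floor for presence. The common biological coefficient of variation was 5.59%. Within groups, chi-square per degree of freedom between libraries was 5.10 to 13.8, above sampling noise, so each was counted once. Standard errors (SE) were computed as the log2 fold change over the square root of F. The procedure was tested on simulated counts.

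The members and lists were chosen with earlier results of these data known. Full values are given for the 3 members per step with the smallest p between 24 h and 0 h, members past 1.5-fold, and members compared in pairs. The 5 regulators and the 2 genes with the smallest p of each other list are named. SEC16A, SRP9, SRP14, SSR4 and SEC62, the pair ratios, the length classes and the motif search were added after values were seen. Transcript length is that of the MANE Select transcript, and copies were searched with BLAST+ 2.17.0. Promoter sequences are from RefSeq. Alternatives were RLE and upper-quartile scaling, other filters, protein-coding genes alone, DESeq2 1.42.0, fits of the compared times alone, a replicate block, leaving out each library and, added after seeing the data, correction for GC content and length.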

Additional observations from a re-analysis of the deposited data

How the results depend on the processing

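The lower level of the members was kept under every alternative tried: their median log2 difference stayed below 0 in all 3 comparisons, and 0 members were called higher under any. DESeq2 called 37 members lower at 12 h and 41 at 24 h relative to 0 h, and 21 between 24 h and 12 h. Leaving out 1 library at a time gave 21 to 38 members at 12 h against 0 h, 37 to 42 at 24 h against 0 h and 3 to 20 at 24 h against 12 h. It gave 1 to 7 members past 1.5-fold at 24 h against 0 h, and medians of -0.13 to -0.0649 at 24 h against 12 h. Correction for GC content and transcript length gave 28 members at 24 h against 12 h and 1 past 1.5-fold at 24 h against 0 h. The cause of these shifts was not tested.

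Equal replicate numbers did not pair the libraries (correlations of deviations -0.15 to 0.10). A fit with the replicate number as a block gave 39, 42 and 20 members, 2 past 1.5-fold at 12 h against 0 h and 8 at 24 h against 0 h, and a median of -0.39 at 24 h against 0 h.

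For the genes named by rule, 1881 alternative values were set against the main fit. Between 24 h and 12 h, only genes called there were included. Of the 1881, 1792 kept direction and side of the threshold, and 63 lost the call. Another 16 gained one and 10 turned direction, all 10 in genes not called in that comparison. The counts and medians over the members were not part of this tally, and some of them moved, as given above. Over all 52 members, calls were lost at some setting by 14 members at 12 h against 0 h, 2 at 24 h against 0 h and 14 at 24 h against 12 h, and gained by 11, 7 and 13. SEC61A2 at 12 h was at -0.17 under the block, at -0.02 without 12 h replicate 3, and at -0.11 to 0.20 over all such omissions. Over the omissions, SEC61A2 at 24 h ran from -0.24 to 0.0847, KDELR3 at 12 h from -0.26 to 0.0766, and CREB3L1 from -1.42 to 0.12 at 12 h and from -0.69 to 0.43 at 24 h, the highest values all being without 0 h replicate 1. CREB3L4 at 24 h was at 0.017 under the block. Under the GC and length correction, EMC2 at 12 h was at 0.010 and EMC10 at -0.026. Depth limited CREB3L1, with 3 to 16 counts per library.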
